A study of Saccharomyces cerevisiae with 6 samples.

Results

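Ribonucleotide reductase makes the deoxyribonucleotides that DNA synthesis and repair consume, and in budding yeast its genes are a classic readout of the DNA damage checkpoint. The 9 genes described here are the large-subunit genes RNR1 and RNR3, the small-subunit genes RNR2 and RNR4, the checkpoint kinase genes RAD53 and DUN1, the repressor gene RFX1 (also called CRT1), and the damage-induced repair genes RAD54 and DIN7. They were taken by gene symbol from the array's probe annotation, which listed each of the 9 with 1 feature, out of 5365 named genes on 6912 features. All 9 had a value in each of the 3 hybridisations and were among the 5349 genes tested.

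Exponential cultures of Saccharomyces cerevisiae S288C, the strain whose genome serves as the yeast reference, were kept at 25 °C in YPD, a rich medium with glucose. Tetrachloroethylene, a chlorinated solvent, was then present at 3.3 mM for 2 h. The 2-colour arrays set cDNA of treated cells (Cy5) against cDNA of cells sampled before the addition (Cy3), with 1 array for each of 3 independent biological samples and 2 scans (high and low laser power) of each array. Every ratio therefore also holds 2 h of further growth and any dye effect, since the dyes were not exchanged, and treatment, time and dye cannot be told apart. Values are log2 ratios read as treated over before, so that a positive value stands for a higher transcript level after treatment. The labels state neither the log base nor the direction, and every sign below rests on that reading of the dye labels.

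When replication stalls or DNA is broken, the kinase Mec1 activates Rad53, Rad53 activates Dun1, and Dun1 acts on the reductase in several ways. It relieves repression by Rfx1, which holds down RNR2, RNR3, RNR4, HUG1 and its own gene through the Tup1-Cyc8 corepressor, and it leads to the destruction of Sml1, a protein inhibitor of the large subunit. RNR1, in contrast, is mainly a gene of the G1/S transition and is driven by the MBF transcription factor.

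After the solvent, 1 of the 9 genes passed the test and it fell, namely DIN7, while 0 rose. The test was limma's moderated test of the mean log2 ratio against 0, with Benjamini-Hochberg adjustment over the 5349 genes and a threshold of 0.05. Over all genes it called 21.0%, with 9.14% higher and 11.9% lower, so that the count of members called was no higher than the share over the array. At an unadjusted p under 0.05, RNR2 was higher and RNR1 and DIN7 were lower. Over all genes, 2064 of 5349 were under that cut in either direction, so 3 of 9 was again no higher than the share over the array. The median of the 9 mean log2 ratios was 0.12, beside -0.022 over all genes tested.

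**Figure D1:**
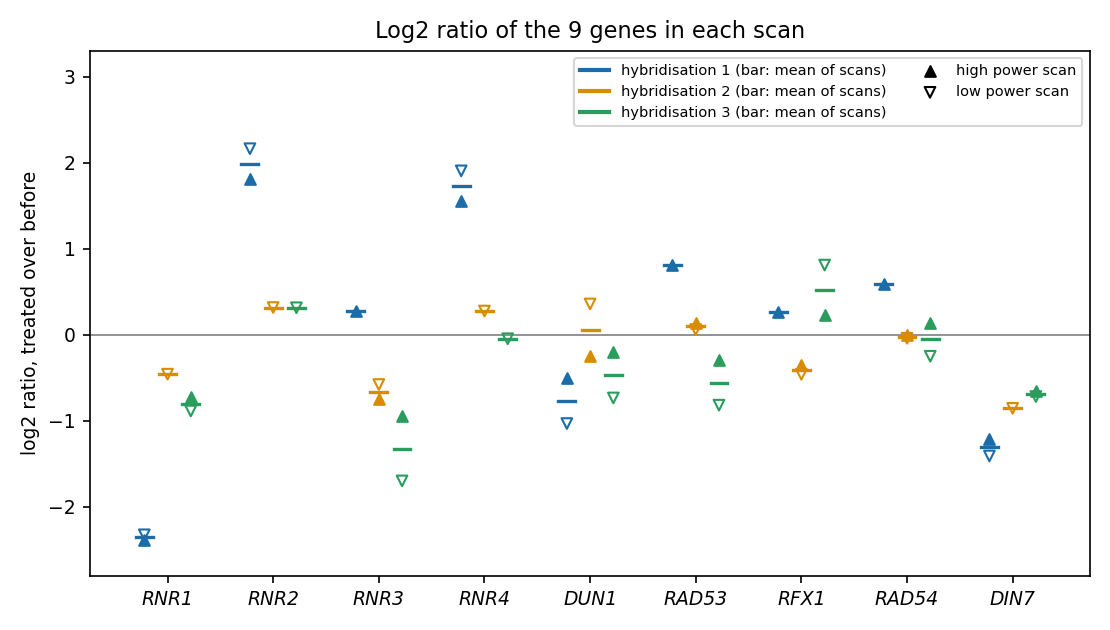
Log2 ratio of treated cells over cells sampled before the addition (vertical axis) for the 9 genes in each scan. Filled triangles are high power scans, open triangles low power scans, colours are the 3 hybridisations and bars their means. RNR1 lies lowest (-2.35) and RNR2 highest (1.98) in hybridisation 1, and DIN7 lies below 0 in all 5 scans that hold it.

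RNR1 encodes the main large subunit, which carries the catalytic site. Its log2 ratio was -2.35 in hybridisation 1, -0.46 in hybridisation 2 and -0.81 in hybridisation 3. All 3 values were negative, and that of hybridisation 1 was far below the other two. The mean was -1.21 ± 1.01 (SD, n = 3), or 2.31-fold lower, and the adjusted p by limma was 0.0564. RNR1 thus had the largest mean change of the 9 genes without passing the test. It was lower with an adjusted p of 0.00312 when hybridisation 1 was left out, although its mean was then -0.63, and with an adjusted p of 0.00229 when hybridisation 2 was left out. Those fits called 42.6% and 14.3% of all genes. RNR1's own spread had no weight in the fit without hybridisation 1, where limma gave all genes 1 pooled variance. It had little weight without hybridisation 2, where the variance came mostly from all genes.

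RNR3 encodes the minor large subunit, a paralogue of RNR1 that is known as one of the most strongly damage-induced genes of yeast. Its log2 ratio was 0.28 in hybridisation 1, -0.66 in hybridisation 2 and -1.32 in hybridisation 3. The gene was therefore above 0 on the first array and below 0 on the others. The mean was -0.57 ± 0.81 (SD, n = 3), with an adjusted p of 0.217 by limma. Without hybridisation 1 it was lower, at -0.99 and an adjusted p of 1.46e-06. In that 2-array fit the gene's own spread had no weight, because limma gave all genes 1 pooled variance.

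RNR2 encodes the small subunit that holds the di-iron centre and the tyrosyl radical. Its log2 ratios were 1.98, 0.32 and 0.31 in hybridisations 1, 2 and 3. All were positive, and the last pair were almost equal. The mean was 0.87 ± 0.96 (SD, n = 3), or 1.83-fold higher, with an adjusted p of 0.116 by limma. RNR4 encodes the companion small subunit, which lacks the radical and helps to assemble and stabilise the dimer. It gave 1.73, 0.28 and -0.047, so that hybridisation 1 again stood apart and hybridisation 3 was close to 0. Its mean was 0.65 ± 0.95 (SD, n = 3), with an adjusted p of 0.208. RNR2 was higher with an adjusted p of 0.0287 when hybridisation 2 was left out, a fit in which its own spread had little weight. Without hybridisation 1 the mean of RNR2 was 0.31 (adjusted p = 0.171) and that of RNR4 was 0.11 (adjusted p = 0.663), and RNR4 passed in 0 of the alternative fits by limma.

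The 2 small-subunit genes ran side by side, and RNR4 minus RNR2 was -0.26, -0.040 and -0.36 log2 units on the 3 arrays. That difference averaged -0.22 ± 0.16 (SD, n = 3; exact sign-flip permutation test, two-sided, p = 0.25, which is the smallest p that 3 arrays allow). Of all genes, 47 lay closer to RNR2 than RNR4 did, by Euclidean distance over the 3 log2 ratios. The large-subunit genes did not run together: RNR3 minus RNR1 was 2.63 in hybridisation 1 but -0.21 and -0.52 in hybridisations 2 and 3 (mean 0.64 ± 1.73, exact sign-flip permutation p = 1). Without hybridisation 1 that difference was -0.36. As a ratio within an array, the mean of the small subunits exceeded the mean of the large subunits by 2.89, 0.86 and 1.199 log2 units, with the same sign on 3 of 3 arrays. This averaged 1.65 ± 1.09 (SD, n = 3; exact sign-flip permutation p = 0.25), and 1.03 without hybridisation 1. With 3 arrays no such difference can reach a p under 0.05, so it is given as a value only.

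**Figure D2:**
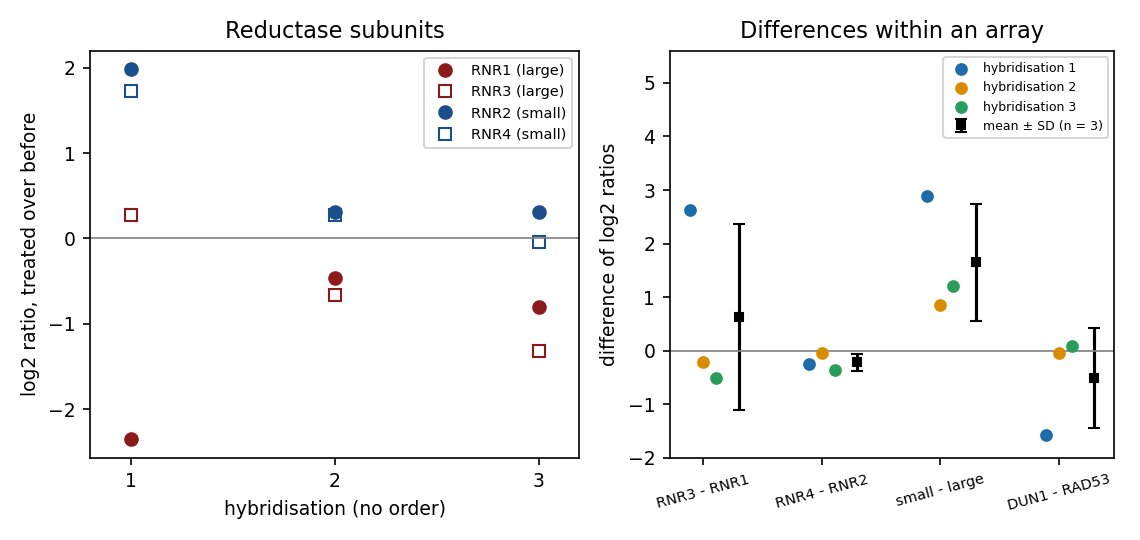
Left, log2 ratio of the 4 reductase subunit genes in each hybridisation (large subunits red, small subunits blue). Right, differences of log2 ratios within an array for 4 pairs, with points for hybridisations and squares with bars for the mean ± SD (n = 3). The difference of small minus large subunits lies above 0 on each array (0.86 to 2.89), whereas RNR3 minus RNR1 changes sign.

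RAD53 encodes the central effector kinase of the checkpoint. It gave 0.81, 0.098 and -0.56 in hybridisations 1, 2 and 3, which spans both sides of 0. The mean was 0.12 ± 0.68 (SD, n = 3), with an adjusted p of 0.785 by limma, and the sign turned to -0.23 without hybridisation 1. DUN1, the kinase that carries the signal from Rad53 to the reductase, gave -0.77, 0.057 and -0.47, negative on 2 arrays. Its mean was -0.39 ± 0.42 (SD, n = 3), with an adjusted p of 0.229. DUN1 minus RAD53 was -1.58, -0.040 and 0.089, a difference that rested on hybridisation 1 (mean -0.51 ± 0.93, exact sign-flip permutation p = 0.75), and it was 0.024 without that array.

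RFX1, the repressor that Dun1 relieves, gave 0.27, -0.40 and 0.52 in hybridisations 1, 2 and 3. These values straddled 0, with a mean of 0.13 ± 0.48 (SD, n = 3) and an adjusted p of 0.717 by limma. Without hybridisation 3 the mean was -0.068. RAD54 encodes a DNA translocase of homologous recombination. It gave 0.59, -0.024 and -0.055, close to 0 on all but the first array. The mean was 0.17 ± 0.36 (SD, n = 3), with an adjusted p of 0.584, and it was -0.040 without hybridisation 1.

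DIN7 encodes a mitochondrial nuclease of the family of Exo1 and Rad27, named for its induction by DNA damage. It fell, with log2 ratios of -1.31, -0.86 and -0.69 in hybridisations 1, 2 and 3. The 3 values were the closest to each other among the 9 genes. The mean was -0.95 ± 0.32 (SD, n = 3), or 1.93-fold lower, with an adjusted p of 0.0217 by limma. The call ended without hybridisation 3 (adjusted p = 0.104, mean -1.08), where 1 gene of the whole array passed, and against a minimum fold of 1.2 (adjusted p = 0.0569). In a bulk culture, fewer cells at a stage of growth or division and less RNA per cell cannot be told apart, here and for all genes below.

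Set against the whole array, DIN7 had the steadiest place of the 9 genes, at percentiles 6.67, 8.28 and 12.4 of the log2 ratios in hybridisations 1, 2 and 3. RNR1 lay at percentiles 0.318, 22.4 and 8.86, in the lower part on each array. RNR2 lay at 97.7, 72.0 and 71.1, in the upper part on each. The place of RNR3 ran from 67.8 in hybridisation 1 down to 14.0 and 1.68 in the others, and that of RAD53 from 85.0 to 17.5. Ratios were wider on the first array, and more so for the 9 genes: their SD there was 1.40, beside 0.90 over all genes. In hybridisations 2 and 3 the 9 genes were less spread than the array, with SDs of 0.42 and 0.58 beside 0.65 and 0.67. Hybridisation 1 held the value largest in size for 7 of the 9 genes, and for 51.0% of all genes tested. The sign was the same on 3 arrays for 3 of the 9 (RNR1, RNR2 and DIN7), and for 58.8% of all genes.

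**Figure D3:**
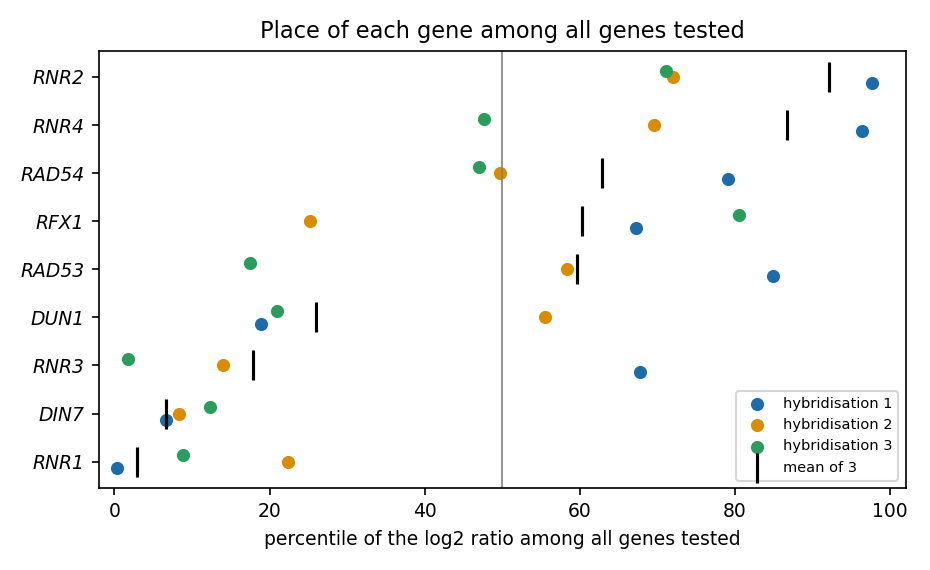
Percentile of each gene's log2 ratio among the 5349 genes tested (horizontal axis) in each hybridisation (coloured points) and for the mean of 3 (black bar), ordered by the mean. DIN7 stays between 6.67 and 12.4, whereas RNR3 runs from 1.68 to 67.8.

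In order of the mean log2 ratio the genes ran RNR1, DIN7, RNR3, DUN1, RAD53, RFX1, RAD54, RNR4 and RNR2. For 7 of the 8 steps between neighbours in that order, the step was smaller than its SD over the 3 arrays. The exception was RNR4 to RNR2, at 0.22 with an SD of 0.16.

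The arrays as a whole set limits on these values. Across genes, hybridisation 1 correlated with hybridisations 2 and 3 at r = 0.56 each, while the latter pair correlated at 0.84. Genes are not independent replicates, so these are descriptions. Of the 54 possible scan values of the 9 genes, 44 were present, and DUN1 alone had all 6. RNR2 and RNR4 lacked the high power scan in hybridisations 2 and 3, as did 8.15% of genes tested, so that their values there rest on 1 scan each. RNR1 and DIN7 also lacked it in hybridisation 2, as did 13.3% of genes tested. RNR3, RAD53, RFX1 and RAD54 lacked the low power scan in hybridisation 1, as did 35.5% of genes tested. Where both scans were present, they differed by a median of 0.35 log2 units over the 17 scan pairs of the 9 genes, beside 0.24 over all features. The widest gap was 0.75, for RNR3 in hybridisation 3 (-0.95 at high and -1.70 at low power). Scans disagreed in sign in 2 pairs, DUN1 in hybridisation 2 (-0.24 and 0.36) and RAD54 in hybridisation 3 (0.14 and -0.25). The part of missing or discordant scans in these results was not tested.

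The count of the 9 genes called moved with the setting, as did the share of the whole array. It was 0 of 5 measured with high power scans only (21.4% of all genes), 3 of 5 with low power scans only (24.0%) and 0 of 1 where all 6 scans were required (20.4%). It was 2 after scaling between arrays (27.9%), 2 after quantile normalisation (27.2%), 1 after median centring (21.2%), 3 with hybridisation as a random block (32.5%) and 0 against a minimum fold of 1.2 (9.61%). Without hybridisation 1 it was 3 (42.6%), without hybridisation 2 it was 3 (14.3%), and without hybridisation 3 it was 0 (0.0187%). RNR1 was called lower in 6 of these fits and DIN7 in 7, RNR2 was called higher in 3, RNR3 lower in 1, and RAD53, DUN1, RFX1, RAD54 and RNR4 in 0 by limma.

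The 3 genes most like RNR1 over the 3 log2 ratios were CIK1, CLB6 and RPL3, at Euclidean distances of 0.17, 0.17 and 0.24. CIK1, which encodes a partner of a spindle motor, was called lower (adjusted p = 0.0498 by limma). CLB6, an S-phase cyclin gene, gave -2.46, -0.55 and -0.70 and did not pass. The 3 genes most like DIN7 were RIO2, ANR2 and ISR1, at distances of 0.072, 0.092 and 0.094, and each was called lower (adjusted p = 0.0211, 0.0236 and 0.0213). Genes this near to a member get an adjusted p near its own, because the test reads the same 3 ratios. The calls of these genes and of CIK1 therefore follow from how they were picked and are no separate result. Between members, DUN1 was the nearest to DIN7 at a distance of 1.08, and 1250 other genes lay nearer.

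Among the other genes of the reductase pathway, HUG1 rose. HUG1 encodes a small protein that inhibits the reductase and is, like RNR3, a gene repressed by Rfx1. Its log2 ratios were 1.25, 0.98 and 0.65 in hybridisations 1, 2 and 3, above 0 on each array. The mean was 0.96 ± 0.30 (SD, n = 3), with an adjusted p of 0.0207 by limma. The call ended without hybridisation 2 (0.0580), without hybridisation 3 (0.0975) and against a minimum fold of 1.2 (0.0530). Of 10 inhibitors and regulators of the reductase, HUG1 was the 1 that rose and IXR1 the 1 that fell, and the median was -0.025. The 20% called is close to the 21.0% over all genes. IXR1 encodes an HMG-box protein needed for RNR1 expression, and its mean was -0.66 ± 0.17 (SD, n = 3) with an adjusted p of 0.0468. That call ended after median centring (0.0522), without hybridisation 2 (0.144), without hybridisation 3 (0.255) and against the minimum fold (0.160). SML1, the inhibitor of the large subunit, gave a steady -0.50, -0.38 and -0.50 (adjusted p = 0.104), and WTM1, the nuclear anchor of the small subunits, gave -0.29, 0.58 and 0.43 (adjusted p = 0.470).

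The reductase takes its electrons from thioredoxins and glutaredoxins, and iron-sulfur proteins help to build its cofactor. Of 10 such genes, 2 rose and 2 fell, the other 6 missed the threshold, and the median was 0.0089. That is 40% called, beside 21.0% over all genes (9.14% higher and 11.9% lower). Thioredoxin gene TRX1 (1.36 ± 0.39, SD, n = 3) and glutaredoxin gene GRX1 (1.27 ± 0.61) were the higher pair, with adjusted p of 0.0114 and 0.0203 by limma. GRX4, a monothiol glutaredoxin of iron handling (-1.06 ± 0.18), and TAH18, the diflavin reductase that passes electrons to Dre2 (-0.83 ± 0.25), were the lower pair, with adjusted p of 0.0139 and 0.0288. The call for TAH18 ended without hybridisation 2 (0.0778) and against the minimum fold (0.0840). Without hybridisation 3 the calls of TRX1, GRX1, GRX4 and TAH18 all ended (adjusted p from 0.0793 for TRX1 to 0.204 for TAH18). Of 6 genes that supply deoxynucleotides by other routes, the dCMP deaminase gene DCD1 fell, at -0.81 ± 0.48 (adjusted p = 0.0498), and 0 rose by limma. The share called was 16.7%, beside 21.0% over all genes. At an unadjusted p under 0.05 there were 1 higher and 2 lower, beside 2064 of all 5349 genes. DCD1 lost its call with low power scans only (0.0803), where all 6 scans were required (0.0510) and after median centring (0.0523). It also lost it without hybridisation 3 (0.206) and against the minimum fold (0.135). The thymidylate synthase gene CDC21 gave -0.82, 0.14 and -0.091 and did not pass (adjusted p = 0.455).

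Of 15 measured checkpoint sensor and mediator genes, 4 fell and 0 rose by limma, and the remaining 11 missed the threshold, where 11.9% of all genes fell and 21.0% passed in either direction. At an unadjusted p under 0.05 there were 5 lower and 0 higher, beside 2064 of all 5349 genes in either direction. The median was -0.25. CHK1, the effector kinase of the branch parallel to Rad53, had log2 ratios of -2.24, -0.88 and -0.89, lowest in hybridisation 1 as was RNR1. Its mean was -1.34 ± 0.78 (SD, n = 3), with an adjusted p of 0.0258. RAD9, an adaptor through which Rad53 is activated, gave -1.32, -0.59 and -0.85, with a mean of -0.92 ± 0.37 and an adjusted p of 0.0267. TOF1 of the replication fork (-0.80 ± 0.33, adjusted p = 0.0366) and RAD17 of the checkpoint clamp (-0.66 ± 0.18, adjusted p = 0.0468) completed the 4. Against a minimum fold of 1.2, where 9.61% of all genes passed, 0 of these 4 passed by limma, with adjusted p from 0.0526 for CHK1 to 0.158 for RAD17. Without hybridisation 2 there were 2 lower, without hybridisation 3 there were 0, and RAD17 also lost its call after median centring (0.0532) and RAD9 with high power scans only (0.0523). In each of the other scan settings 5 genes of the list were measured, without CHK1, RAD9, TOF1 and RAD17, and 0 passed by limma. MEC1 and TEL1 were not analysed here.

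**Figure D4:**
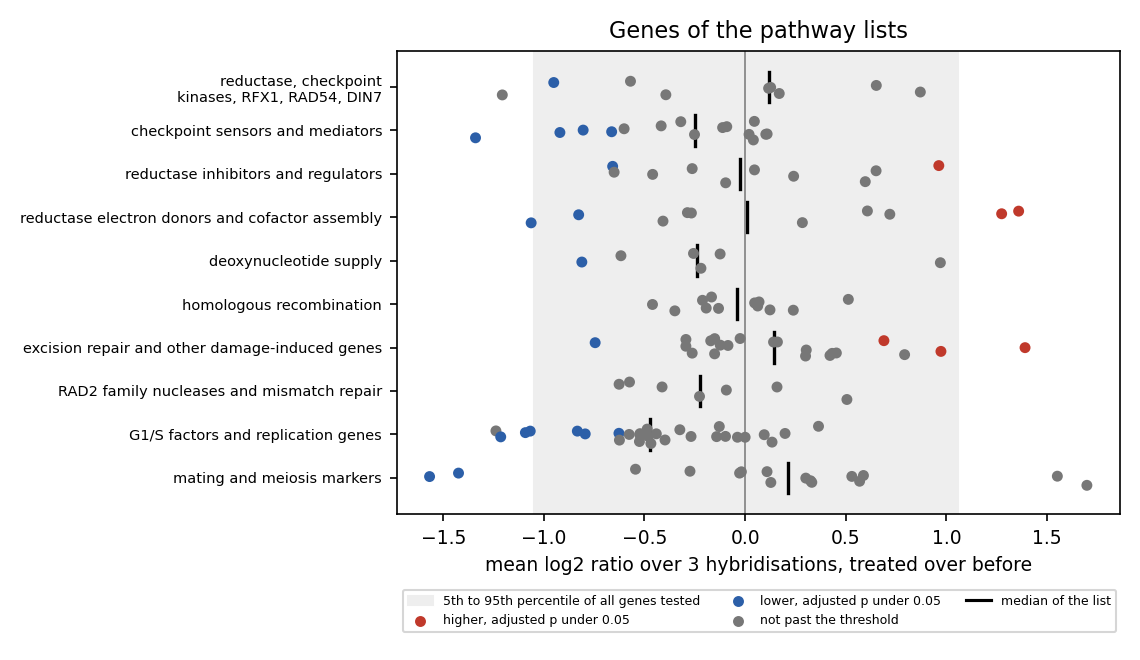
Mean log2 ratio over 3 hybridisations (horizontal axis) of each measured gene of the 9 genes and of 9 lists, with black bars at list medians and the 5th to 95th percentile of all genes tested shaded. Red and blue points passed the test as higher and lower. Most genes of each list lie within the shaded range of -1.05 to 1.06.

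Among damage-induced repair genes the glycosylase gene MAG1 and the stress gene DDR48 rose. Of 21 measured genes of excision repair, damage tolerance and damage induction, 3 rose and 1 fell, the other 17 missed the threshold, and the median was 0.14. The 19.0% called is close to the 21.0% over all genes. MAG1, a DNA glycosylase that removes alkylated bases, gave 1.102, 0.87 and 0.95, the most even of the 3 that rose. Its mean was 0.97 ± 0.12 (SD, n = 3), with an adjusted p of 0.0161 by limma. DDR48, a stress protein gene induced by heat and DNA damage, was at 1.39 ± 0.73 (adjusted p = 0.0207), with its lowest value, 0.56, on the first array. DDI2, which has a near-identical copy that this kind of array cannot separate, was at 0.69 ± 0.15 (adjusted p = 0.0406). OGG1, the glycosylase for oxidised guanine, fell at -0.75 ± 0.37 (adjusted p = 0.0481). Its call ended after median centring (0.0515), without hybridisation 2 (0.0564) and against the minimum fold (0.141), and that of DDI2 ended without hybridisation 2 (0.241) and against the minimum fold (0.135). Without hybridisation 3 the calls of MAG1, DDR48, DDI2 and OGG1 all ended (adjusted p from 0.116 for MAG1 to 0.238 for OGG1).

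Of 12 measured genes of homologous recombination, the process in which Rad54 acts, 0 rose and 0 fell by limma. Over all genes 21.0% passed. An unadjusted p under 0.05 was reached by 1 that was higher and 1 that was lower, beside 2064 of all 5349 genes. Means of the 12 ran from -0.46 for SRS2 to 0.51 for XRS2, and the median was -0.042. Of 7 measured genes of the nuclease family of DIN7 and of mismatch repair, 0 rose and 0 fell by limma, with a median of -0.23. The share over all genes is the same 21.0%. Before adjustment, 1 of the 7 was higher and 2 were lower at a p under 0.05, beside 2064 of all 5349 genes. EXO1, the nuclear relative of DIN7, gave -0.59, 0.018 and -0.66 and did not pass (adjusted p = 0.196).

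The G1/S transition is the stage at which RNR1 is normally transcribed. Of 28 measured G1/S factors and replication genes, 6 fell and 0 rose by limma, and the other 22 missed the threshold, where 11.9% of all genes fell. Before adjustment, 14 were lower and 0 higher at a p under 0.05. Over all genes, 2064 of 5349 were under that cut in either direction. The median was -0.47, beside -0.022 over all genes, and 23 of the 28 means were negative. TOS4, a G1/S chromatin protein (-1.21 ± 0.45, SD, n = 3), POL12, a subunit of the priming polymerase (-1.09 ± 0.56), NRM1, the corepressor of MBF (-1.07 ± 0.48), and MCD1, a cohesin subunit (-0.83 ± 0.48), were the lowest of those called. Their adjusted p-values were 0.0163, 0.0267, 0.0225 and 0.0468. The S-phase cyclin CLB5 (-0.44 ± 0.50, adjusted p = 0.213) and the sliding clamp POL30 (-0.13 ± 0.48, adjusted p = 0.714) did not pass. With high power scans only, 28 genes of the list were measured and 6 fell by limma, but not the same 6, since POL12 lost its call (0.0573). In the other scan settings 7 were measured, without TOS4, POL12, NRM1 and MCD1, and 0 passed by limma. Without hybridisation 1 the count of lower genes was 10, without hybridisation 3 it was 0, and against the minimum fold it was 1, TOS4. It was 4 without hybridisation 2, where MCD1 lost its call (0.0625). The part of cell-cycle stage in the RNR1 values was not tested.

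**Figure D5:**
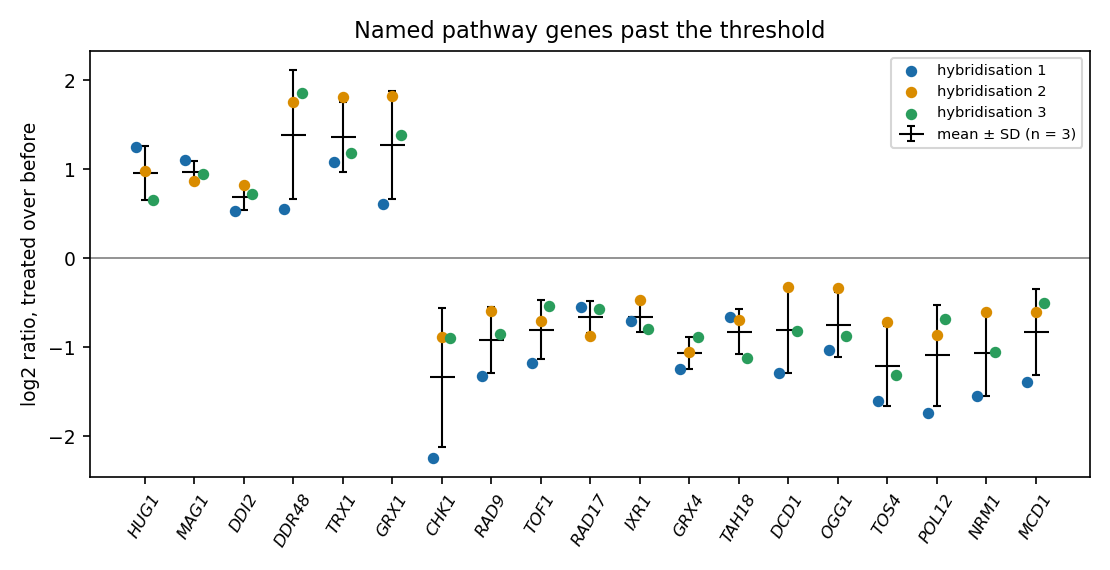
Log2 ratio of treated cells over cells sampled before the addition (vertical axis) for 19 pathway genes past the threshold. Coloured points are hybridisations and black bars the mean ± SD (n = 3). Each gene has the same sign on all 3 arrays, which the choice of genes by a test over these same arrays favours. HUG1, MAG1, DDI2, DDR48, TRX1 and GRX1 lie above 0 and the other 13 below.

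Markers of other cell states were read beside these genes. Of 16 measured genes of mating and meiosis, 2 fell and 0 rose by limma, with a median of 0.21. The share called was 12.5%, beside 21.0% over all genes. Before adjustment, 4 were higher and 3 lower at a p under 0.05, beside 2064 of all 5349 genes in either direction. The 2 that fell were STE3 (-1.57 ± 0.36, SD, n = 3, adjusted p = 0.00937) and MF(ALPHA)2 (-1.42 ± 0.61, adjusted p = 0.0157), both specific to cells of the alpha mating type. Ratios hold no level, so whether a marker was near 0 cannot be read from them.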

How the data were processed

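Per the labels' descriptions, the authors applied LOWESS normalisation to spots flagged 0, and the deposited values are read here as log2 ratios. Neither scanner, spot software nor background correction is given in the sources used. The log base was inferred from the highest value, 7.74, which is large for a log10 ratio. No intensities were used and dim spots were not filtered. The number of arrays limits the precision. Features took gene names from the platform annotation, brought up to date with the R64 gene table. The 2 scans of a hybridisation were averaged, or 1 taken if its partner was missing, and then the features of a gene. Each gene with 3 values entered an intercept-only fit (lmFit, eBayes, two-sided) in limma 3.58.1 under R 4.3.3. The procedure was run on simulated data, with 200 genes shifted in each of 5 rounds and every array drawn alike. That run does not cover an array that stands apart as hybridisation 1 does, and no result rests on it. Errors are SD over hybridisations. Members and lists were chosen with earlier results of these data known. Named genes are the 9 members, up to 4 called genes per list and direction, 10 genes of interest, and the 3 nearest genes to the 2 members with the largest means; SRS2 and XRS2 were named after their values were seen. Alternatives covered scans, arrays left out, centring, scaling, quantile normalisation, feature medians, a minimum fold and a random block.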

Additional observations from a re-analysis of the deposited data

How the results depend on the processing

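Each array already holds its own control, so the test of the ratio against 0 is the paired comparison. With 1 group, no further pairing was possible. The count of the 9 genes past the threshold, 1 in the main fit, was 0 with the high power scan alone (5 measured), with genes read in all 6 scans (1 measured) and against a minimum fold of 1.2. It was 2 after scaling and after quantile normalisation, and 3 with the low power scan alone (5 measured) and with hybridisation as a random block. Leaving out 1 array gave from 0 to 3. The extra genes were RNR1 in each case, RNR2 with the low scan, the random block and without hybridisation 2, and RNR3 without hybridisation 1. Over all genes the count of 1125 of 5349 (21.0%) was 544 of 2672 with genes read in all 6 scans (20.4%). It was 514 against the minimum fold (9.61%), 1741 with the random block (32.5%), and from 1 (0.0187%) to 2281 (42.6%) without 1 array. Over the genes of the lists the count of 23 of 125 measured was 12 of 54 with the low scan and 3 of 43 with all 6 scans. Over all genes the low scan called 24.0%. Of the same 125 list genes, 8 passed against the minimum fold, 37 with the random block, and from 0 to 50 without 1 array. The difference RNR3 minus RNR1 ranged from -0.36 to 1.21 and DUN1 minus RAD53 from -0.81 to 0.024 when 1 array was left out. Signs turned without hybridisation 1 for RAD53, RAD54, CDC21 and POL30, and without hybridisation 3 for RFX1. With 1 array left out, RAD53 ranged from -0.23 to 0.45, RAD54 from -0.040 to 0.28, CDC21 from -0.45 to 0.024, POL30 from -0.37 to 0.11 and RFX1 from -0.068 to 0.39. Every call of a list gene ended without hybridisation 3. Median centring moved 0 of the 9 genes across the threshold, and feature medians likewise. Among the named genes, centring ended the calls of RAD17, IXR1, DCD1 and OGG1 (adjusted p from 0.0515 to 0.0532 by limma). Lower G1/S and replication genes went from 6 to 5. Higher genes went from 1 to 2 for inhibitors and regulators, from 2 to 3 for electron donors and from 0 to 1 for deoxynucleotide supply. The count over the lists was then 21. The cause was not tested.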

Other observations

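Of the 18 protein-coding genes that lie immediately beside the 9 genes in the order of assembly R64, 16 were measured, of which 2 rose and 2 fell by limma, where 21.0% of all genes passed. Beside RAD53, PEP4, the gene of the vacuolar protease A, rose at 1.09 ± 0.56 (SD, n = 3, adjusted p = 0.0266), while RAD53 itself spanned both signs. TIM13, a mitochondrial import gene beside RNR4, rose at 0.65 ± 0.012 (adjusted p = 0.0436), and RNR4 itself was at 0.65 ± 0.95 without passing. Beside RFX1, CBF5, the pseudouridine synthase of H/ACA particles, fell at -1.39 ± 0.26 (adjusted p = 0.0100), and beside RNR3, YIL067C fell at -0.95 ± 0.37 (adjusted p = 0.0243). Neither measured neighbour of DIN7 passed. The neighbours were looked up after the values of the 9 genes were seen.

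The markers MFA2 and SPO11 had log2 ratios of 4.29 and 3.86 in hybridisation 1 but of -0.22 and 0.57 in hybridisation 2 and 0.59 and 0.66 in hybridisation 3, and neither passed (adjusted p = 0.185 and 0.0899). They were named after their values were seen.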
